A study of Mus musculus with 36 samples.

Results

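Cytosolic ribosomal protein genes encode the proteins of the ribosome that translates nuclear messenger RNA. They were taken by name: protein-coding genes called Rpl or Rps followed by a number, the stalk genes Rplp0, Rplp1 and Rplp2, and Rpsa, without the Rps6k kinase genes and without pseudogenes, with a mean count of at least 100 over the 36 libraries. The rule found 82 genes among the 39017 of the table, and used no comparison between groups. Of the 82, 43 belong to the large subunit, 31 to the small subunit including Rpsa and 3 to the stalk, and 5 are paralogs or like-named genes (Rpl7l1, Rpl22l1, Rpl36al, Rps27l and Rps19bp1). All 82 passed the filter on low counts.

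RNA of the cochlea, where the inner ear turns sound into nerve signals, was sequenced from CBA/Sca mice 12 weeks old. The mice had been adrenalectomized (ADX), which removes the gland that secretes glucocorticoids, or sham-operated, so that both groups went through surgery. Each status was sampled at circadian times (CT) 4, 8, 12, 16, 20 and 24 h, with 3 libraries per status and time, 18 libraries per status. The labels do not say that each library is a separate animal, and a p-value below therefore speaks of the spread among these libraries, which may be technical.

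A ribosome carries 1 copy of most of its proteins, and cells keep the output of these genes in step with one another. Their transcripts begin with a run of pyrimidines, the terminal oligopyrimidine (TOP) motif, through which the kinase complex mTORC1 and the RNA-binding protein LARP1 set how well they are translated. Transcription and translation of this class are known to follow the daily cycle of feeding in mouse liver. A change in translation alone would not appear in RNA levels as measured here.

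Counts per ADX library summed to between 20351081 and 28947793 and per sham library to between 18999408 and 28995197. The 15 cochlear markers were all detected, with summed levels of 5257 to 7263 CPM (counts scaled to a fixed library size) in ADX and 5552 to 8125 CPM in sham libraries. Marrow transcripts were abundant too: 10 erythroid markers summed to 13169 to 26576 CPM in ADX and 18172 to 31700 CPM in sham libraries. A score of skeletal muscle markers stood apart in 3 ADX libraries, replicate 1 of CT12, replicate 2 of CT16 and replicate 3 of CT20. Pituitary transcripts led by Gh (growth hormone) stood apart in 5 libraries (ADX CT24 replicates 1 and 2, sham CT08 replicates 2 and 3 and sham CT16 replicate 3). Of the markers that passed the filter on low counts, none was at 0 in every library of a status. The filter takes out genes near 0 beforehand, and markers that failed it were not checked. It kept 4 of 7 pituitary and 10 of 11 erythroid markers, and all 15 of the cochlear and of the muscle list. In bulk tissue, fewer cells of a type and less RNA per cell cannot be told apart.

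The 82 genes together took 1.69 to 2.01% of the counts of an ADX library, with a median of 1.89%, and 1.64 to 2.04% in sham, with a median of 1.86%. The lowest shares were in ADX CT20 replicate 1 and in sham CT20 replicate 2, and the highest in ADX CT04 replicate 3 and in sham CT04 replicate 1. Between genes, levels were compared as CPM per kilobase of the deposited gene length. Rplp1 was the most abundant at 1121 CPM per kilobase, followed by Rps27 at 912, Rps29 at 879, Rps12 at 788 and Rps4x at 704 CPM per kilobase. At the low end stood Rps19bp1 at 13.1, Rpl7l1 at 26.2, Rpl26 at 30.5, Rpl36al at 36.0 and Rpl22l1 at 80.9 CPM per kilobase. Of the 5 lowest genes 4 are thus paralogs or like-named genes, and Rpl26 was the only core subunit gene among them. Rps19bp1 encodes a protein that binds RPS19 and is not a subunit of the ribosome.

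The name rule without the count minimum gives 86 genes. Rps19bp1, just inside, had a mean count of 273, and Rps27rt, just outside, one of 53.3. Rpl3l, the form of RPL3 of heart and skeletal muscle, had a mean count of 15.97; its counts in the 3 muscle-high libraries were 39 (CT12), 22 (CT16) and 65 (CT20), against at most 27 in any other library. The germline-type genes Rpl39l and Rpl10l had mean counts of 3.89 and 0.0556.

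Adrenalectomy was first set against sham over the mean of the 6 times, which asks whether loss of the adrenal changes the level of these transcripts whatever the hour. No ribosomal protein gene was called. Levels differed by little: the log2 fold change of ADX over sham ran from -0.05 for Rps2 to 0.07 for Rpl26, with a median of 0.01. The 82 genes had overlapping ranges of CPM in the 18 ADX and the 18 sham libraries in every case. Ranges over 18 libraries overlap readily, and the share over all genes tested was not counted. The overlap is therefore not read as a result about the members.

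The number called was 0 of 82 at an adjusted p under 0.05 by edgeR's quasi-likelihood test, where 0.718% of the 22556 genes tested were called. At an unadjusted p under 0.05 the count was also 0, against 15.6% of all genes tested, and DESeq2 called 0 as well. The smallest adjusted p by edgeR was 0.343, for Rps27. The 95% interval of the log2 fold change stayed within 0.1 of 0 for 77 genes, and the widest bound, of Rpl26, was 0.19. The log2 fold change was above 0 for 61 of the 82 genes, against 50.7% of all genes tested. That count rests on single libraries and on scaling: it was 33 without sham CT08 replicate 1, 38 without ADX CT20 replicate 2 and 49 with DESeq2's size factors, and 78 without the 5 libraries of highest Gh. Without those 5 libraries the median log2 fold change was 0.04. That fit leaves sham CT08 replicate 1 and ADX CT24 replicate 3 as the sole libraries of their groups. Sham CT08 replicate 1 had the lowest members' share of the sham CT08 libraries, so neither the 78 nor this median is read as a direction. The number of members that passed an unadjusted p of 0.05 by edgeR was 4 without sham CT08 replicate 2 and 4 without sham CT12 replicate 2.

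**Figure D1:**
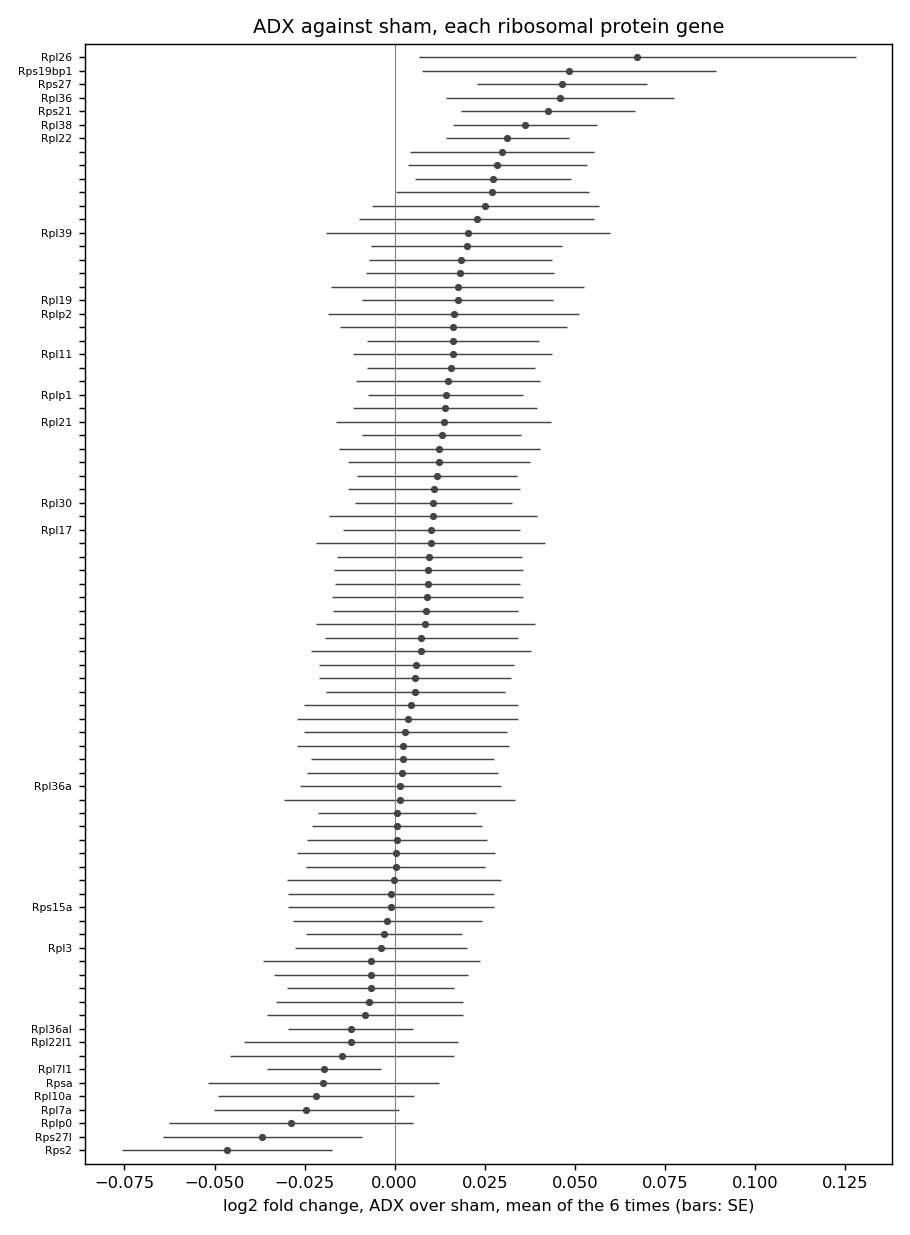
Log2 fold change of ADX over sham over the mean of the 6 times, for each of the 82 ribosomal protein genes (points) with its standard error (bars); genes given values in the text are named. The values run from -0.05 for Rps2 to 0.07 for Rpl26, and none passed an adjusted p of 0.05 by edgeR.

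In the large subunit, 34 of 43 genes had a log2 fold change above 0, with values from -0.02 to 0.07. Rpl26, whose protein in human cells also binds the p53 transcript, had 12.0, 16.27 and 28.4 CPM (lowest, median and highest) in ADX libraries, against 11.7, 16.7 and 23.6 CPM in sham libraries. Its 2 ranges overlapped almost whole, and its log2 fold change of 0.07 ± 0.06 (SE) was close to its error. Rpl36 had 76.2, 97.3 and 106 CPM in ADX libraries, against 81.4, 93.0 and 108 CPM in sham libraries. Rpl38, known for its part in translating Hox transcripts in mouse embryos, had 69.6, 79.2 and 85.8 CPM in ADX libraries, against 69.5, 77.1 and 84.1 CPM in sham libraries. The log2 fold changes were 0.05 ± 0.03 for Rpl36 and 0.04 ± 0.02 for Rpl38. At the lower end, Rpl7a stood at -0.02 ± 0.03 and Rpl10a at -0.02 ± 0.03 on the log2 scale.

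In the small subunit, 24 of 31 genes had a log2 fold change above 0, with values from -0.05 to 0.05. Rps27, a zinc-finger protein of the small subunit, had 211, 236 and 268 CPM in ADX libraries, against 197, 226 and 258 CPM in sham libraries. Rps2, at the entry of the messenger RNA channel, had 138, 153 and 164 CPM in ADX libraries, against 142, 157 and 181 CPM in sham libraries. Both pairs of ranges overlapped, with log2 fold changes of 0.05 ± 0.02 and -0.05 ± 0.03. Rps21 had a log2 fold change of 0.04 ± 0.02. Rpsa, also known as the laminin receptor precursor, had 265, 312 and 341 CPM in ADX libraries, against 269.9, 310.1 and 363 CPM in sham libraries. Its named pseudogenes held 58.8% as many counts as Rpsa itself, so reads may have been split between copies, and its log2 fold change was -0.02 ± 0.03.

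The stalk proteins form the flexible arm that draws elongation factors to the ribosome. Rplp0, its base, had 268, 296 and 334 CPM in ADX libraries, against 262, 306 and 357 CPM in sham libraries. Rplp1 had 513, 550.1 and 624 CPM in ADX libraries, against 474, 551 and 627 CPM in sham libraries. Rplp2 had 190.2, 234 and 256 CPM in ADX libraries, against 201, 227 and 258 CPM in sham libraries. The ADX and sham ranges overlapped for each, with log2 fold changes of -0.03 ± 0.03, 0.01 ± 0.02 and 0.02 ± 0.03. Of the 5 paralogs and like-named genes, 1 had a log2 fold change above 0: Rps19bp1 stood at 0.05 ± 0.04, Rps27l at -0.04 ± 0.03, Rpl7l1 at -0.02 ± 0.02, Rpl22l1 at -0.01 ± 0.03 and Rpl36al at -0.01 ± 0.02. None of these was called.

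At single times, with 3 libraries against 3, no ribosomal protein gene was called either. At CT20, 0.00443% of all genes tested were called, and at the other 5 times 0.0%. DESeq2 called 0 members at each time. At an unadjusted p under 0.05 by edgeR, 1 member passed at CT20 (Rps27), against 7.49% of all genes, and 0 at CT04 (9.3%), CT12 (5.41%), CT16 (7.95%) and CT24 (5.74%). CT08 was the time at which most members leaned one way: the log2 fold change of ADX over sham was above 0 for 72 of the 82 genes, against 48.0% of all genes tested, with a median of 0.07. At an unadjusted p under 0.05, 15 of the 82 genes passed at CT08, against 4.28% of all genes, and their adjusted p by edgeR was 0.9999. Rpl39 had the highest value there, 0.29 ± 0.10, followed by Rpl22l1 at 0.23 ± 0.07 on the log2 scale.

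The lean at CT08 depended on sham CT08 replicate 1. A score, the mean over the 82 genes of the log2 CPM of a library less the gene's mean over all libraries, was 0.05, 0.09 and 0.07 in the ADX CT08 libraries and -0.12, 0.13 and -0.03 in the sham CT08 libraries (replicates 1, 2 and 3). The ADX libraries lay close together and within the range of the sham ones. Without sham CT08 replicate 1 the median log2 fold change was 0.01, and 3 of 82 genes passed an unadjusted p of 0.05. Without sham CT08 replicate 2 the median was 0.15 and 45 passed, and without sham CT08 replicate 3 it was 0.06 and 4 passed. On the ADX side 6 passed without ADX CT08 replicate 1 and 9 without replicate 3. The count was 8 without the 3 muscle-high libraries and 47 without the 5 libraries of highest Gh, which leaves sham CT08 replicate 1 as the sham library of that time. That library is then assumed to vary like those of the other groups, so the count of 47 is not a replicated comparison. Sham CT08 replicate 1 also had the lowest summed B lymphocyte markers of all libraries (903 CPM) and the highest cochlear marker score, and the part of tissue makeup in the result was not tested.

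At the other times the medians were closer to 0. The median log2 fold change was -0.01 at CT04, -0.0039 at CT12, -0.02 at CT16, 0.03 at CT20 and -0.02 at CT24. At CT04, 29 of 82 genes were above 0 (49.5% of all genes tested), at CT12 37 (51.2%), at CT16 17 (52.5%), at CT20 58 (49.7%) and at CT24 25 (52.5%). These counts moved with single libraries at each of the 5 times. At CT04 the count was 53, 44 and 17 without ADX replicates 1, 2 and 3, and 65 and 14 without sham replicates 1 and 3. At CT12 it was 45 and 46 without ADX replicates 1 and 2, and 5 and 65 without sham replicates 1 and 2. At CT16 it was 6 and 49 without ADX replicates 1 and 2, and 4 and 29 without sham replicates 1 and 2. At CT20 it was 32 and 39 without ADX replicates 2 and 3, and 23 without sham replicate 2. At CT24 it was 10 without ADX replicate 1, and 39 and 11 without sham replicates 1 and 3. No lean at these times is therefore read as a direction of the members. Rpl26 was at an extreme of the list at all 6 times, lowest at CT04 and CT08 and highest at CT12, CT16, CT20 and CT24.

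**Figure D2:**
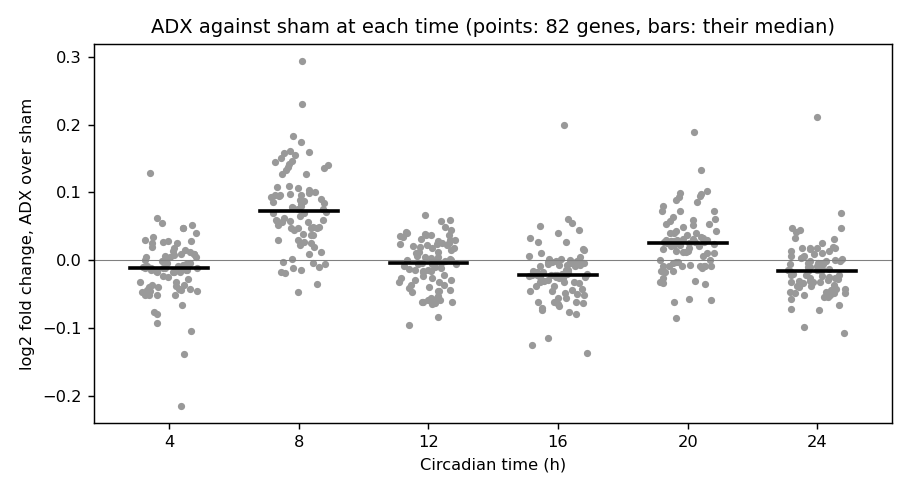
Log2 fold change of ADX over sham at each circadian time (x axis, h) for the 82 genes (points), with their median (bars). The median is 0.07 at CT08 and between -0.02 and 0.03 at the other 5 times.

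The second question was whether these transcripts follow a 24 h cycle in the cochlea. A cosine and a sine of 24 h were fitted to each status, and a gene's peak-to-trough value is the fitted difference between its highest and lowest point on the log2 scale. A shared rhythm was tested on these terms averaged over ADX and sham. A gene can therefore pass this test mainly through 1 status. By this test 33 of the 82 genes were called at an adjusted p under 0.05 by edgeR, or 40.2%, against 32.5% of all genes tested. Among genes at least as abundant as the 5th percentile of the members, 41.9% were called, so the members' share was close to that of abundant genes. Of the 33 called members 26 peaked between CT4 and CT8, against 25.03% of all called genes. So did 38 of the 49 members not called, so this hour was not particular to the called ones. The members vary together, so these peaks are not independent of one another. Called members had small amplitudes, with peak-to-trough values from 0.08 to 0.49 and a median of 0.15.

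Over all 82 genes, called or not, 64 had their fitted peak between 4 and 8 h, and the median peak-to-trough value was 0.10 on the log2 scale, against 0.18 over all genes tested and 0.11 among genes as abundant. The members' score averaged 0.06 ± 0.05 at CT04, 0.03 ± 0.09 at CT08, -0.03 ± 0.06 at CT12, -0.01 ± 0.05 at CT16, -0.06 ± 0.07 at CT20 and 0.00 ± 0.04 at CT24 (SD over 6 libraries, both statuses). The lowest libraries of all were sham CT20 replicate 2 at -0.16 and ADX CT20 replicate 1 at -0.14, and the highest was sham CT04 replicate 1 at 0.15. Single libraries thus spread more widely than the means of the times. Leaving out 1 library moved the count of called members to between 23 (without sham CT04 replicate 1) and 55 (without sham CT08 replicate 1), and 21 of the 33 were called whichever of the 36 libraries was left out.

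**Figure D3:**
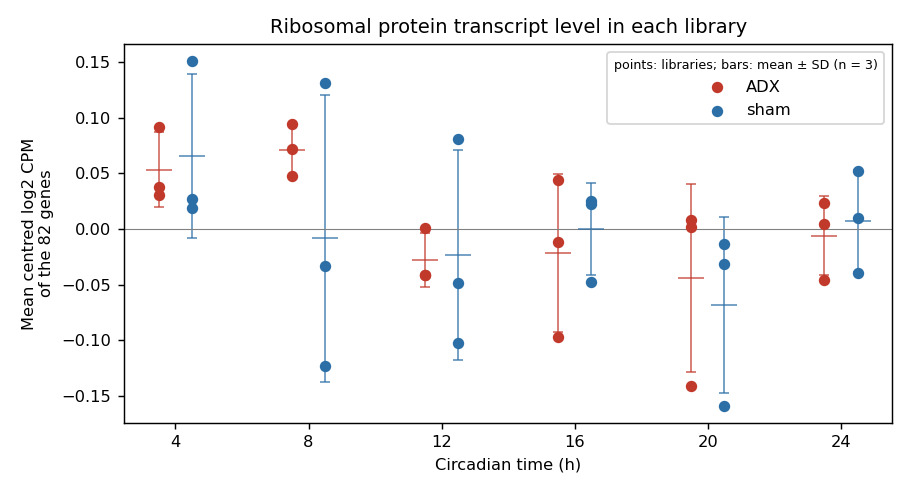
Mean centred log2 CPM of the 82 genes (y axis) in each library by circadian time (x axis, h), ADX left of sham (points, libraries; bars, mean and SD of 3). The mean over both statuses is highest at CT04 (0.06) and lowest at CT20 (-0.06), and single libraries lie between -0.16 and 0.15.

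Tested by status, 12 of 82 genes were called rhythmic in ADX (Rpl22l1, Rpl30, Rpl39, Rpl3, Rpl17, Rps15a, Rpl21, Rpl22, Rpl26, Rpl36, Rpl11 and Rpl36a), against 9.4% of all genes. In sham, 6 of 82 were called, among them Rpl3, Rplp1, Rpl22, Rpl19 and Rpl7l1, against 16.08% of all genes. Rpl3 and Rpl22 were called in both. The test of the difference in rhythm, ADX minus sham, called 0 of the 82 genes and 0.0% of all genes by edgeR, so the differing lists do not show that rhythms differ between the statuses. At an unadjusted p under 0.05, 2 members passed, Rpl22l1 and Rpl39, against 3.57% of all genes; DESeq2 called 0 members as well. The counts by status rest on single libraries: in ADX 7 were called without ADX CT20 replicate 1, and in sham 2 without sham CT08 replicate 2 and 11 without sham CT08 replicate 1. Rpl3, Rpl22l1, Rpl30, Rpl39, Rpl17 and Rps15a in ADX, and Rpl3 and Rplp1 in sham, were called whichever of the 36 libraries was left out. The fitted peak-to-trough value was larger in ADX than in sham for 56 of the 82 genes, against 43.2% of all genes tested. This count was not computed again with libraries left out. The members vary together, so these 56 are not independent of one another.

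**Figure D4:**
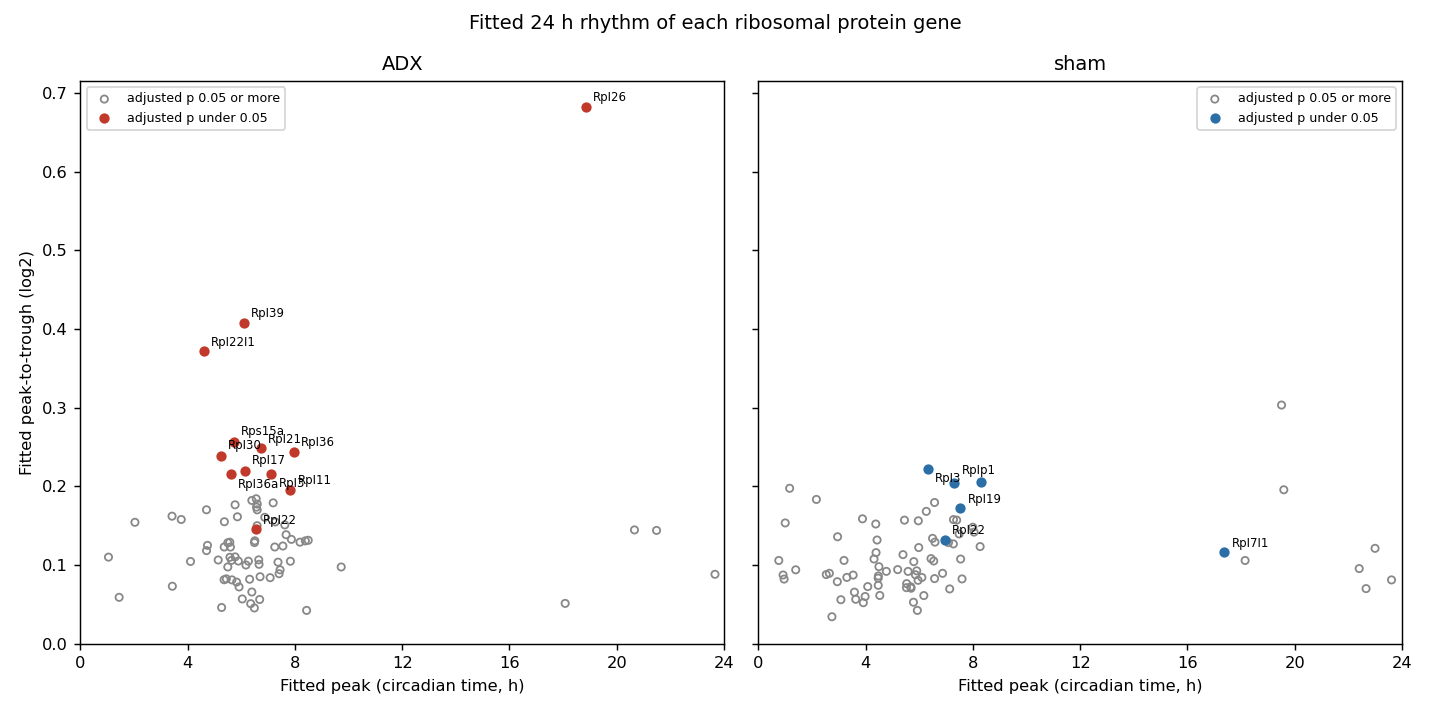
Fitted peak-to-trough value (y axis, log2) against fitted peak (x axis, h) of the 82 genes in ADX (left) and sham (right), with genes at an adjusted p under 0.05 by edgeR filled and those given values in the text named. Most peaks lie between 4 and 8 h in both panels, and Rpl26 and Rpl7l1 lie on the other side of the cycle.

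Rpl3 (ENSMUSG00000060036, chr15:80077791-80091868 of GRCm38, minus strand), which lies near the peptidyl transferase centre, had the smallest p for a shared rhythm of all members. In ADX it had 396, 410.0 and 411 CPM at CT08 and 321, 353 and 374 CPM at CT20. In sham it had 372, 430.1 and 396 CPM at CT08 and 361, 321 and 359 CPM at CT20. In both statuses every CT08 library was above every CT20 library; here and below, pairs of times were chosen after their values were seen. Its peak-to-trough value was 0.22 ± 0.05 (SE) with a peak at 7.12 h in ADX, and 0.22 ± 0.05 with a peak at 6.32 h in sham, with adjusted p of 0.00790 and 0.00361 by edgeR.

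Rpl22 (ENSMUSG00000028936, chr4:152325742-152334071, plus strand), an RNA-binding protein needed for T-lymphocyte development in mice, was called in both statuses at a lower amplitude. In ADX it had 184, 179 and 181 CPM at CT04 and 159, 173 and 162 CPM at CT20. In sham it had 183, 180.5 and 178 CPM at CT04 and 168, 156 and 163 CPM at CT20. In each status these groups did not overlap. The peak-to-trough value was 0.15 ± 0.03 in ADX and 0.13 ± 0.03 in sham.

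Its paralog Rpl22l1 (ENSMUSG00000039221, chr3:28805436-28807424, plus strand), which RPL22 is known to repress in mouse cells, had the smallest p of all members for a difference in rhythm between statuses. ADX libraries had 45.4, 45.6 and 44.9 CPM at CT04 and 36.7, 35.8 and 33.6 CPM at CT12. Sham libraries had 47.3, 40.2 and 43.9 CPM at CT04 and 35.3, 40.0 and 35.1 CPM at CT12. At CT08 the ADX libraries, at 46.4, 40.9 and 44.4 CPM, were all above the sham libraries, at 34.9, 38.9 and 38.4 CPM. The peak-to-trough value was 0.37 ± 0.06 in ADX (adjusted p = 0.000886 by edgeR) and 0.20 ± 0.06 in sham (adjusted p = 0.0748 by edgeR). The difference between them had an unadjusted p of 0.0108 and an adjusted p of 0.9997 by edgeR.

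Rpl39 (ENSMUSG00000079641, chrX:37082520-37085402, minus strand) encodes a small protein at the exit tunnel for the growing peptide. ADX libraries had 112, 103 and 111 CPM at CT08 and 70.5, 91.9 and 83.6 CPM at CT20. Sham libraries had 83.0, 98.5 and 84.7 CPM at CT08 and 89.5, 80.03 and 87.4 CPM at CT20. The ADX groups did not overlap and the sham groups did, and ADX CT20 replicate 1 was the lowest of all 36 libraries. The peak-to-trough value was 0.41 ± 0.08 in ADX and 0.18 ± 0.08 in sham, and the test of the difference gave an unadjusted p of 0.0139 and an adjusted p of 0.9997 by edgeR. For Rpl30, which in yeast binds its own transcript, the values were 0.24 ± 0.04 in ADX and 0.10 ± 0.04 in sham, with an unadjusted p of 0.0902 for the difference.

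Rplp1 (ENSMUSG00000007892, chr9:61913284-61914542, minus strand) was the one stalk gene called. In ADX it had 573, 599 and 615 CPM at CT04 and 526, 513 and 527 CPM at CT24. In sham it had 627, 588 and 566 CPM at CT04 and 539, 519.7 and 529.8 CPM at CT24. Its peak-to-trough value was 0.16 ± 0.05 in ADX (adjusted p = 0.0548 by edgeR) and 0.20 ± 0.05 in sham (adjusted p = 0.00738 by edgeR). Rplp0 and Rplp2, its partners, had values of 0.07 and 0.08 over both statuses and were not called.

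Rpl19, also called in sham, had a peak-to-trough value of 0.13 ± 0.05 in ADX and 0.17 ± 0.05 in sham. Of those called in ADX, Rpl17, at the exit tunnel, had 0.22 ± 0.05 in ADX and 0.12 ± 0.05 in sham. Rpl11, which with RPL5 binds the p53 regulator MDM2, had 0.20 ± 0.05 in ADX and 0.16 ± 0.05 in sham. Rpl21 had 0.25 ± 0.06 in ADX and 0.13 ± 0.06 in sham. In the small subunit Rps15a was the gene called by status, with 0.26 ± 0.06 in ADX and 0.16 ± 0.06 in sham; its pseudogenes held 12.198% as many counts as the gene. For a shared rhythm 19 of 43 large subunit genes, 10 of 31 small subunit genes, 1 of 3 stalk genes and 3 of the 5 paralogs and like-named genes were called. The share was 32.5% of all genes tested and 41.9% of genes as abundant.

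**Figure D5:**
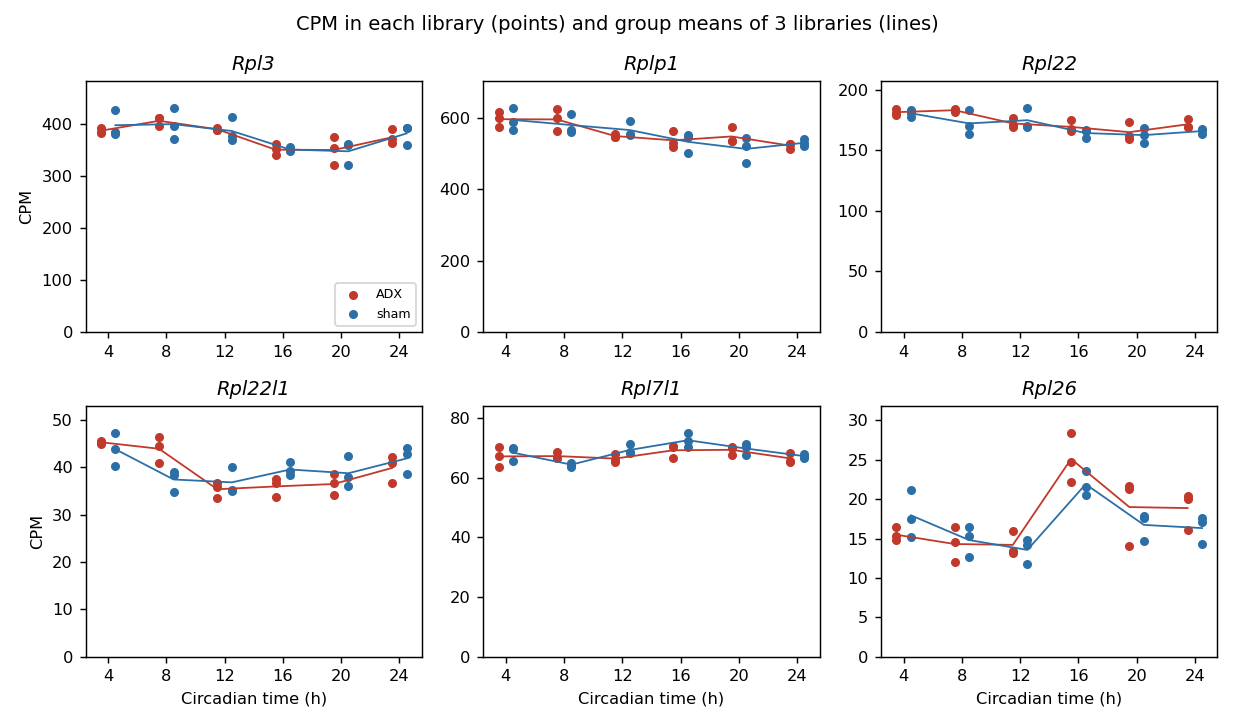
CPM of 6 genes (y axis from 0) in each library (points) by circadian time (x axis, h), with the means of 3 libraries (lines), ADX left of sham. Rpl3, Rplp1, Rpl22 and Rpl22l1 are highest at CT04 or CT08, and Rpl7l1 in sham and Rpl26 in both statuses at CT16.

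Among called members 3 had their peak on the other side of the cycle. Rpl26 (ENSMUSG00000060938, chr11:68901583-68906989, plus strand) had 24.7, 22.2 and 28.4 CPM at CT16 and 15.9, 13.2 and 13.5 CPM at CT12 in ADX. Sham libraries had 20.5, 23.6 and 21.6 CPM at CT16 and 11.7, 14.8 and 14.2 CPM at CT12. In both statuses the CT16 libraries were above every CT12 library. Named pseudogenes of all ribosomal protein genes together held 0.945 to 1.03% as many counts as the members at CT12 and 1.11 to 1.22% at CT16. Whether reads were split between Rpl26 and pseudogene copies was not tested. Its peak-to-trough value was 0.68 ± 0.16 in ADX (adjusted p = 0.0199 by edgeR) and 0.30 ± 0.16 in sham (adjusted p = 0.388 by edgeR), with fitted peaks at 18.9 h and 19.5 h. Rpl26 also had the largest spread within groups, an SD of 0.19 on the log2 scale, where the median member had 0.08.

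Rpl7l1 (ENSMUSG00000063888, chr17:46773907-46782672, minus strand), a nucleolar relative of RPL7, had 70.8, 66.5 and 70.4 CPM at CT16 and 66.6, 66.6 and 68.7 CPM at CT08 in ADX. In sham it had 70.4, 72.2 and 75.2 CPM at CT16 and 63.8, 64.4 and 65.1 CPM at CT08. The ADX groups overlapped and the sham groups did not. With a fitted peak at 17.6 h, its shared peak-to-trough value of 0.08 was the smallest of all called members, and its spread within groups, an SD of 0.04, the lowest of the 82. Rpl36al, a retrogene copy of Rpl36a, peaked at 19.6 h with a peak-to-trough value of 0.12, while its parent Rpl36a peaked at 5.89 h with 0.19. Rps19bp1 peaked at 20.4 h and Rps27l at 0.708 h, and neither was called. None of the 5 paralogs and like-named genes had its peak between 4 and 8 h. The parent genes Rpl22 and Rpl36a did, but the peaks of the parent genes Rpl7 and Rps27 are not given here. No contrast between parent genes and paralogs is therefore drawn.

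Promoter letters are shown for 5 called members with a fitted peak between 4 and 8 h, for Rpl35a, with a peak at 2.38 h, and for 2 called paralogs with a peak outside 4 to 8 h. Sequences from RefSeq (GRCm38.p6) cover 250 bases before to 50 bases after each annotated start; 62 of the 82 genes had 1 or more, 73 promoters in all. Each line runs from 50 bases before the start to 30 bases from it, 5′ to 3′ on the strand of the gene, so that base 51 is the annotated start. Capitals mark CTTTCC on the strand of the gene, CCGGAAG on either strand (CTTCCGG on the other), which is the core bound by ETS factors, and CACGTG, the E-box bound by clock factors such as CLOCK and BMAL1. Rpl22l1 and Rpl7l1 are shown as called paralogs with none of these letters in the window. The genes were picked as examples, so they do not compare core genes with paralogs. Where a gene had more than 1 annotated start, the start with the most matches is shown.
Rpl22 (chr4:152325676-152325755, plus strand): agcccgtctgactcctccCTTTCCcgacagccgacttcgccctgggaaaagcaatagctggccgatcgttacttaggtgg
Rpl35a (chr16:33056432-33056511, plus strand): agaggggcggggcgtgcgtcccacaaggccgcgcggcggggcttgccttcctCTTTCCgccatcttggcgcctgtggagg
Rpl11 (chr4:136053364-136053443, minus strand): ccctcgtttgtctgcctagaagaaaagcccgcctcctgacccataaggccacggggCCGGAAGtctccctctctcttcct
Rpl39 (chrX:37085193-37085272, minus strand): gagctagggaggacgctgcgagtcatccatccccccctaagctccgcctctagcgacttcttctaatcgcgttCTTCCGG
Rpl19 (chr11:98026660-98026739, plus strand): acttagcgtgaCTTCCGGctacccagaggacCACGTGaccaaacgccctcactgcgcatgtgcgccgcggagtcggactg
Rpl23 (chr11:97782410-97782489, minus strand): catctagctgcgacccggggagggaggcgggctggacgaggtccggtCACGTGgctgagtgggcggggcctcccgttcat
Rpl22l1 (chr3:28805458-28805537, plus strand): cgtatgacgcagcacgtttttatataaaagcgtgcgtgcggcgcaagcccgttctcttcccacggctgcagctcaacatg
Rpl7l1 (chr17:46782627-46782706, minus strand): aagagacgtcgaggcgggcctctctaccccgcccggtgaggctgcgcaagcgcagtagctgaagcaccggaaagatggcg

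Over the whole 300 bases and both strands, CTTTCC stood in 50.7% of the members' promoters, against 26.6% of all 32851 promoters. CCGGAAG stood in 35.6% against 8.86%, CACGTG in 10.96% against 7.15%, and AGAACA, the half-site of the glucocorticoid receptor, in 12.33% against 18.97%. On the strand of the gene within 50 bases of the start, CTTTCC stood in 30.1% of the members' promoters against 4.69% of all, CCGGAAG in 13.7% against 2.75%, CACGTG in 2.74% against 2.92% and AGAACA in 1.37% against 3.32%. By gene, CTTTCC near the start stood in 6 of 21 members called for a shared rhythm and in 13 of 41 not called, CCGGAAG over the whole length in 7 of 21 called and 18 of 41 not called, and CACGTG in 3 of 21 called and 3 of 41 not called. The letters were thus found in members of both kinds. A match in these windows is a description of letters and not of binding.

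The members varied together from library to library. After the mean of each of the 12 groups was taken out, the median correlation between pairs of members was 0.75 over 36 libraries, and 62 of 82 members had a correlation over 0.8 with the mean of the others. The libraries share depth and tissue makeup, so this is a description of them. Rpl26 (0.09), Rpl7l1 (0.35), Rps19bp1 (0.42), Rpl22l1 (0.43) and Rpl36al (0.45) had the lowest correlations with the mean of the others, and 4 of these 5 are paralogs or like-named genes. The spread within groups was lowest for Rpl7l1, Rpl36al and Rpl22 and highest for Rpl26, Rpl39 and Rps19bp1.

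Outside the list, the 5 genes with a level most like the members' score over the 36 libraries were Eef1b2 (Pearson's r = 0.937), Snord42a (0.924), Rack1 (0.908), Gm24016 (0.878) and Snora21 (0.875). Eef1b2 encodes a translation elongation factor and Rack1 a scaffold protein of the small subunit. The other 3 are small nucleolar RNA genes that lie inside Rpl23a, Rps20 and Rpl23, so their counts may include reads of the host gene. In all, 59 small nucleolar RNA genes lie inside 30 of the members, and 23 members overlap an annotated gene on the other strand. Whether strand was used in the counting is not stated by the sources at hand.

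The rest of the translation machinery was read from lists of genes. Fau and Rack1, which encode ribosomal proteins under other names, had log2 fold changes of 0.05 ± 0.02 and -0.01 ± 0.03 in ADX over sham, and neither was called. Fau was called for a shared rhythm, with a peak-to-trough value of 0.11 and a peak at 8.05 h (adjusted p = 0.0489 by edgeR). Of 20 translation factors with TOP transcripts, 0 were called in ADX over sham and 10 for a shared rhythm. For a shared rhythm, 32.5% of all genes tested and 41.9% of genes as abundant as the members were called. Hnrnpa1 had a peak-to-trough value of 0.19 with a peak at 7.03 h, Eef1a1 0.12 at 7.68 h, Btf3 0.11 at 5.85 h and Eef2 0.11 at 8.83 h. Of 6 tested host genes of small nucleolar RNAs, which also begin with a TOP motif, 4 were called for a shared rhythm: Zfas1 (0.24), Snhg12 (0.25), Snhg3 (0.33) and Gas5 (0.15). Their peaks lay between 3.35 and 7.29 h.

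Among 33 ribosome assembly factors, 11 were called for a shared rhythm, or 33.3%, against 32.5% of all genes tested. Rrp1 had a peak-to-trough value of 0.11 at 8.42 h, Ncl (nucleolin) 0.18 at 7.46 h, Rrp9 0.18 at 10.6 h and Pes1 0.16 at 8.63 h. Of 14 genes of mTORC1 and its TOP regulators, 2 were called: Mtor, the kinase itself, with 0.09 at 12.34 h, and Rps6kb2, an S6 kinase, with 0.11 at 7.92 h. Of the 77 mitochondrial ribosomal protein genes, which serve a separate ribosome, 19 were called, or 24.7%, led by Mrps9 with 0.27 at 6.60 h and Mrpl2 with 0.22 at 7.18 h. In ADX over sham 0 genes of these lists were called.

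The scores of these lists followed the members' score to different degrees over the 36 libraries. Pearson's r was 0.88 for TOP translation factors, 0.85 for host genes of small nucleolar RNAs, 0.73 for assembly factors, 0.61 for mitochondrial ribosomal proteins and 0.35 for mTORC1 and its TOP regulators. Markers of tissue makeup moved with the members too, with r of 0.42 for B lymphocyte, 0.40 for erythroid and -0.41 for cochlear markers, and of -0.06 for skeletal muscle markers. With group means taken out these were 0.68, 0.59, -0.44 and -0.01. The 12 B lymphocyte markers summed to 1374 to 2648 CPM in ADX libraries and 903 to 1861 CPM in sham libraries, all 12 had a log2 fold change above 0 in ADX over sham, and 1 was called. The 10 erythroid markers had log2 fold changes below 0, and 0 were called. Granulocyte precursor and osteoblast markers, of which 3 of 12 and 3 of 11 were called lower in ADX, had r of 0.07 and -0.08 with the members' score. With group means taken out their r was 0.36 and 0.12. The 4 pituitary markers tested had r of 0.09, and 0.22 with group means taken out. The part of tissue makeup in the level of ribosomal protein transcripts was not tested.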

How the data were processed

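Whole-number counts per Ensembl gene were deposited by the authors, not normalized, with gene length beside them. Per the labels, strand-specific libraries of messenger RNA were sequenced as single reads of 100 bases in pools of 6. The submitters' processing notes name STAR 2.4.0i and the build mm10, and no source at hand gives the counting program, its annotation or whether strand was used. For 30 of the 36 columns the name gives a time 1 h before the label; labelled times were used. Symbols came from GENCODE M21, which matched 37607 IDs (96.4%).

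Tests were edgeR's quasi-likelihood tests (edgeR 4.0.16, R 4.3.3) after TMM scaling and filterByExpr, with Benjamini-Hochberg adjustment over all 22556 genes kept. The filter left out 16461 genes with 0.0779% of counts. One model held 12 group means (24 residual degrees of freedom), the other a cosine and a sine of 24 h per status (30). The shared rhythm was tested on the cosine and sine terms averaged over both statuses, and the difference in rhythm on ADX minus sham. CPM values are counts scaled by TMM library sizes, computed here. No pair of replicates was a duplicate (chi-square over its degrees of freedom 5.03 to 20.4). The steps were tried on simulated counts. Alternatives used DESeq2 1.42.0, other scaling, no filter, the replicate number as a block and libraries left out.

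The members, the gene lists and the libraries left out were chosen with earlier results of these data known. Named genes were the members with extreme fold changes, smallest p, extreme levels or spread, the stalk genes and paralogs, and up to 4 called genes per list. Figures were drawn with matplotlib 3.10.9. Results for some genes are not reported here.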

Additional observations from a re-analysis of the deposited data

How the results depend on the processing

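No ribosomal protein gene was called for ADX over sham, over the mean or at a single time, or for a difference in rhythm, under any alternative run. Without the 5 libraries of highest Gh 78 of 82 members had a log2 fold change above 0, against 61 with all libraries. Among the 12 members named for it the sign turned positive for Rpl10a (0.017), Rpl7a (0.0056), Rplp0 (0.00997) and Rpsa (0.0075). That fit leaves sham CT08 replicate 1 and ADX CT24 replicate 3 as the sole libraries of their groups. Sham CT08 replicate 1 had a members' score of -0.12, against 0.13 and -0.03 in sham CT08 replicates 2 and 3, which were left out. The part of this in the shift was not tested. The count of members with a shared rhythm was 33 and lay between 23 and 55 with 1 library left out; it was 36 with DESeq2, 27 with no filter on low counts and 25 without the 3 muscle-high libraries. The count in ADX was 12 and lay between 7 (without ADX CT20 replicate 1) and 15. The count in sham was 6; it was 2 when low counts were kept and 2 without the 5 libraries of highest Gh. With 1 library left out it lay between 2 (without sham CT08 replicate 2) and 11 (without sham CT08 replicate 1), and was 3 without each of sham CT04 replicate 1, CT16 replicates 1 and 3, CT20 replicate 2 and CT24 replicate 2. Same-numbered samples did not deviate together (median correlation of -0.0030), so the number does not pair them; with the replicate number as a block, 31 members were called for a shared rhythm, 11 in ADX, 5 in sham and 0 for ADX over sham. Counts over all genes for ADX over sham were less stable: 162 over the mean of the times, 630 with DESeq2, 11 without the 5 libraries of highest Gh and 21 to 302 with 1 library left out.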
